A study of Mus musculus with 2 samples.

Results

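The genes of glycolysis and of the hypoxia response were followed through sections of mouse cerebellum that held a mammary tumor. The members were 36 genes listed by their function: sensors and transcription factors of the oxygen response, glucose transporters, glycolytic enzymes, genes of pyruvate, lactate and pH, and targets of hypoxia-inducible factor (HIF). Of these, 32 were measured, among 19465 genes in all. *Tpi1*, *Eno1*, *Ldha* and *Ldhb* were not analysed here.

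The data were 2 sections labeled as replicates, named section 1 (organoid HP-F1 in the labels) and section 2 (HP-B6). The labels do not say whether both came from the same organoid line, so differences between sections and between lines cannot be told apart. Both belonged to the single genotype group HP and had no treatment, so the only contrasts were those between regions of the same section. HP organoids came from mouse mammary tumors with a human HER2 V777L transgene and PIK3CA H1047R, started in the mammary gland with Cre adenovirus, labeled with luciferase, selected as clones and injected into the cerebellum of syngeneic mice, for which the methods give an age of 5 months. An actin promoter behind a Lox-STOP-Lox element drives the HER2 transgene. The assay was Visium CytAssist on formalin-fixed slides, where ligated probe pairs stand in for the mouse RNA, bind to a grid of barcoded spots and are counted once per molecule (UMI). A spot is a small area that can hold several cells.

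As background, HIF is a transcription factor whose alpha subunits (*Hif1a* and *Epas1*) are destroyed when oxygen is plentiful, because prolyl hydroxylases (*Egln1* and *Egln3*) mark them for degradation. When oxygen is scarce, HIF raises genes that bring glucose into the cell, split it to pyruvate, send lactate and acid out and recruit vessels. Glycolysis also runs in well-oxygenated brain, where neurons and astrocytes use their own isozymes of several steps.

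Each spot was assigned to a region by marker genes, none of them a member. Spots rich in epithelial or stromal genes over neural genes were called tumor, and spots rich in neural genes were called neural. Spots with at least 1000 CPM (counts scaled to a common library total) of *Arg1*, the arginase of a macrophage state, that lay within 5 array steps of both were called the Arg1-high edge. The tumor held 759 and 755 spots in sections 1 and 2, the edge 122 and 208, and the neural region 2373 and 2877. The median tumor spot held 54517 and 42009 UMIs, the median edge spot 19738.5 and 18577, and the median neural spot 7631 and 9814, so levels are given in CPM. Summed over spots, the 6 libraries held 2620873 to 39694999 UMIs.

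The 2 tumors differed in most epithelial markers. The sum of 6 mammary epithelial markers that the region rule did not use was 109 CPM in the tumor of section 1 and 2443 CPM in that of section 2, against 37.4 and 98.0 CPM in the neural region. Of these markers, *Ehf*, *Krt14* and *Cldn3* had 775, 883 and 646 CPM in the tumor of section 2 and 5.06, 2.19 and 2.32 CPM in that of section 1. *Gata3* had 52.1 CPM in the tumor of section 1 and 71.3 in that of section 2, *Esr1* 31.3 and 16.4, and *Erbb2* 16.2 and 52.2. These last were above the neural region in both sections. *Ehf*, *Krt14* and *Cldn3* were near it in section 1, where the neural region had 5.62, 1.84 and 4.12 CPM. Of the epithelial genes of the region rule, *Epcam*, *Krt7* and *Krt8* had 6.50, 2.80 and 22.5 CPM in that tumor. Its neural region had 3.68, 2.52 and 4.90 CPM of them. *Col1a1*, also in the rule, had 21796.5 against 274 CPM, so the tumor of section 1 was set mostly by collagen genes. The tumor of section 1 was rich in fibroblast markers (2028 CPM, against 116 in section 2) and in macrophage markers (5274 against 1123 CPM). The edges differed likewise in epithelial markers (58.8 and 1293 CPM) and fibroblast markers (1712 and 120 CPM), while their macrophage sums were 7872 and 7436 CPM. For this reason each value below is given for each section, and a value of 1 section is the value without the other.

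**Figure D1:**
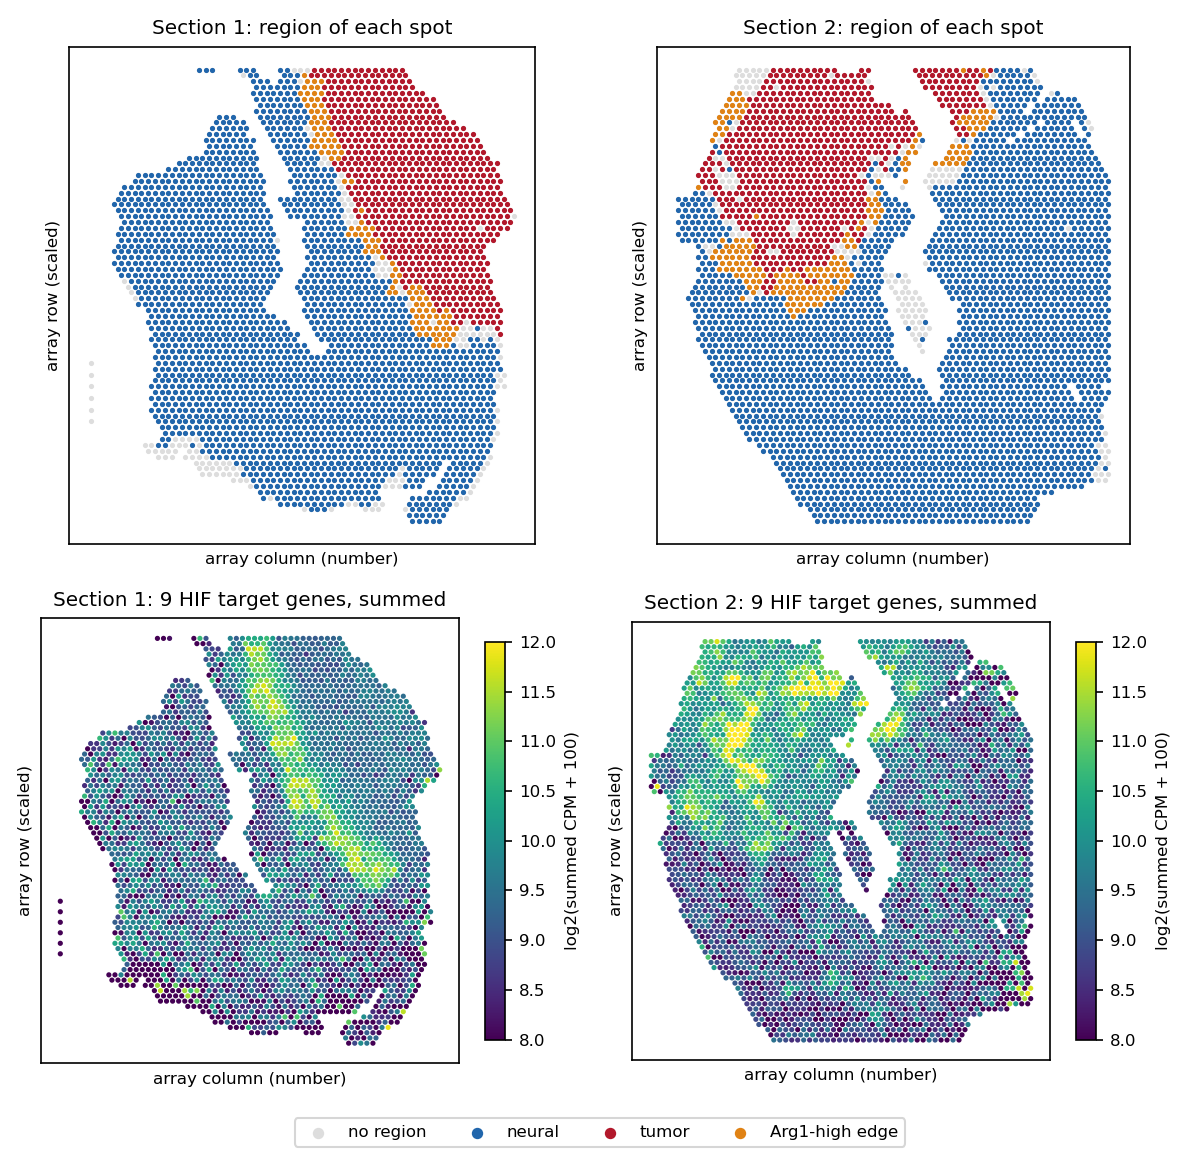
Spots of both sections drawn at their array column and row. The upper panels color each spot by region, and the lower panels by log2 of the summed CPM of the 9 HIF targets after adding 100. In section 1 the high values follow the border of the tumor, where the 122 edge spots lie, and in section 2 they form patches inside the tumor. The sum weighs each gene by its level, so *Plin2* counts most at the border of section 1.

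The edge had the highest level of most members in section 1. There 25 of the 32 were highest in the edge, 6 in the neural region and 1 in the tumor. In section 2 the tumor led for 13, the edge for 11 and the neural region for 8. Over all genes tested the edge led for 25.4% in section 1 and 22.0% in section 2. In both sections alike, 11 members peaked in the edge (*Hif1a*, *Egln1*, *Slc2a1*, *Hk2*, *Gpi1*, *Aldoa*, *Pgam1*, *Pkm*, *Bnip3*, *P4ha1* and *Plin2*), 6 in the neural region (*Epas1*, *Slc2a3*, *Hk1*, *Pfkm*, *Aldoc* and *Eno2*) and *Ddit4* in the tumor. The background of genes that peaked in the edge of both sections was 9.77% of 19228, that of the neural region 29.9% and that of the tumor 20.9%.

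**Figure D2:**
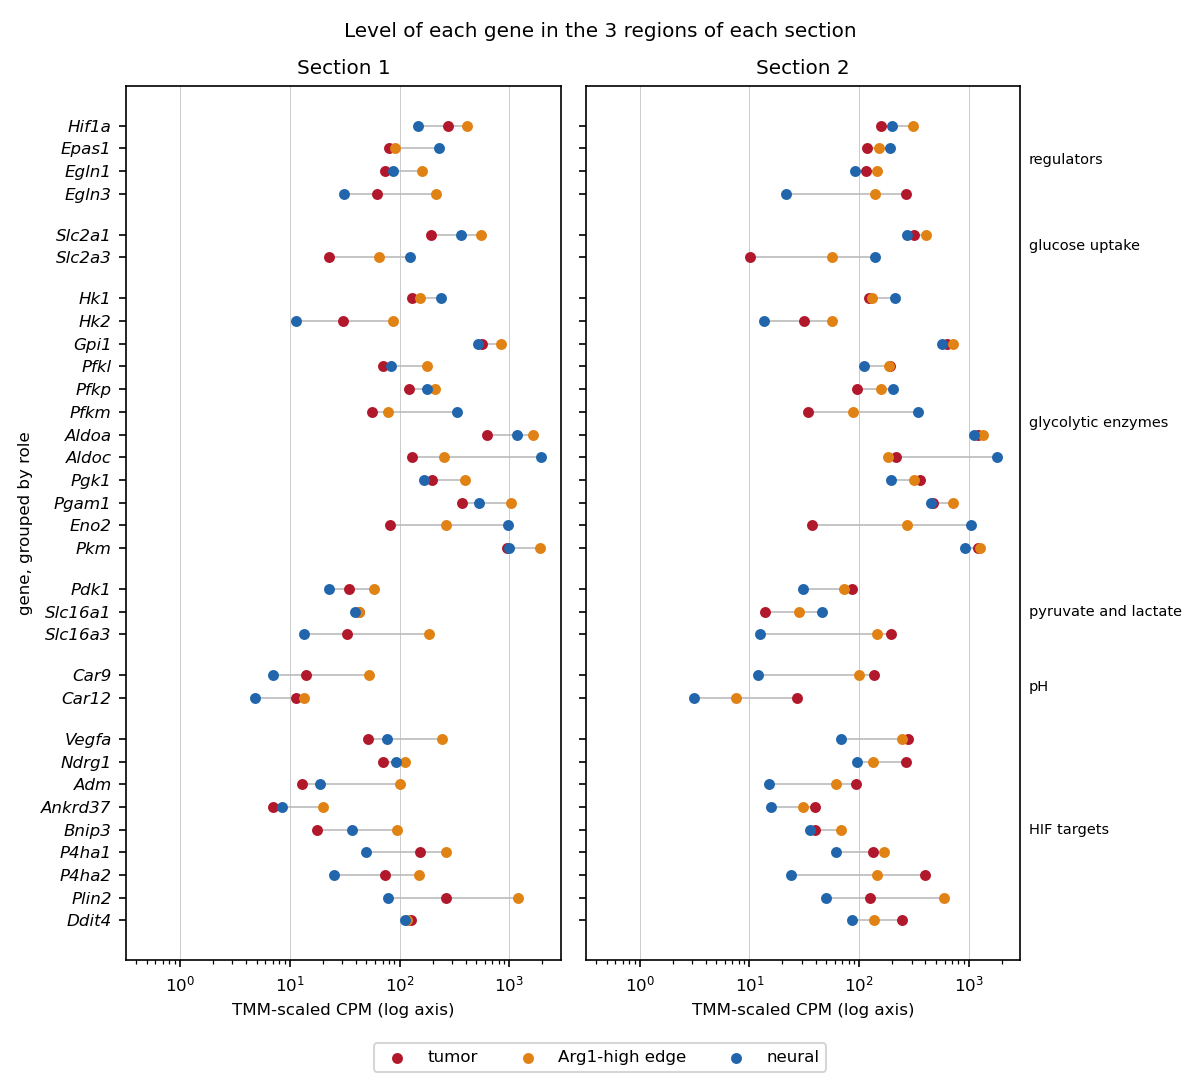
TMM-scaled CPM (log axis) of the 32 genes, ordered by role, in the tumor, the Arg1-high edge and the neural region of section 1 (left) and section 2 (right). Orange points of the edge lie to the right of the other regions for 25 genes in section 1 and for 11 in section 2.

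All genes were tested by edgeR's quasi-likelihood test (blocked on section, Benjamini-Hochberg adjustment), and 8 of the 32 members were called between tumor and neural region at an adjusted p below 0.05. Of all genes tested, 27.1% were called in that comparison (12.9% higher and 14.3% lower in the tumor), so the members' share of 25.0% was near the background. *Hk2*, *P4ha1* and *Plin2* were higher in the tumor, and *Slc2a3*, *Hk1*, *Pfkm*, *Aldoc* and *Eno2* were lower. Between edge and neural region 6 members were called (18.8%, against 11.5% of all genes: 5.73% higher and 5.78% lower). *Hk2*, *P4ha1* and *Plin2* were higher in the edge, and *Pfkm*, *Aldoc* and *Eno2* were lower. At an unadjusted p below 0.05 there were 16 members in the first comparison, where 42.1% of all genes passed, and 19 in the second, where 30.1% passed. Between edge and tumor edgeR called no member and 0% of all genes with the settings used throughout. At an unadjusted p below 0.05 that comparison held 9 members and 14.3% of all genes. DESeq2 called 1041 of all genes there, among them 3 members, *Slc2a3*, *Eno2* and *Plin2*. The 3 comparisons share libraries, and fewer cells of a type in a region cannot be told apart from less RNA per cell.

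Among the regulators, *Hif1a*, the oxygen-regulated HIF-1 subunit, had 275 CPM in the tumor, 409 in the edge and 147 in the neural region of section 1, and 159, 306 and 198 CPM in section 2. The edge was highest in both sections, and the tumor exceeded the neural region in section 1 but not in section 2. The fitted log2 difference of edge over neural was 1.01 ± 0.35 (SE), which did not pass (edgeR adjusted p = 0.136). *Epas1*, which encodes HIF-2 alpha and is known from endothelium and astrocytes, ran the other way, with 79.9, 91.7 and 229 CPM in section 1 and 117, 153 and 189 CPM in section 2. The neural region was highest each time, and the log2 difference of tumor over neural was -1.13 ± 0.31 (adjusted p = 0.0564). Of the hydroxylases, *Egln1* stayed within 73.1 to 161 CPM over the 6 libraries and peaked in both edges. *Egln3*, itself a strong HIF target, spanned 21.5 to 268 CPM. It had 62.5, 215 and 31.3 CPM in the tumor, edge and neural region of section 1 and 268, 140 and 21.5 CPM in section 2, so that the edge was about as far above the neural region in both (log2 2.76 and 2.68) while the tumor was not (0.99 and 3.61). None of the 4 regulators was called by edgeR with the settings used throughout. Scaled by library size alone, edgeR called *Epas1* lower in the tumor (adjusted p = 0.0378). DESeq2 called *Epas1* lower in the tumor (adjusted p = 0.0398) and *Egln3* higher in tumor and edge.

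The glucose transporters split. *Slc2a3* encodes GLUT3, the transporter of neurons, and had 22.6, 64.4 and 125 CPM in the tumor, edge and neural region of section 1 and 10.1, 56.3 and 140 CPM in section 2. The order of the regions was the same in both sections. It was lower in tumor than in neural tissue by a log2 difference of -3.10 ± 0.39 (edgeR adjusted p = 0.00911). *Slc2a1* encodes GLUT1, the transporter of the blood-brain barrier and a HIF target. Its level was 193, 552 and 364 CPM in section 1 and 313, 410 and 272 CPM in section 2, highest in the edge of both, with the tumor lowest in section 1 and between the others in section 2. No comparison of *Slc2a1* passed. The endothelial marker sum differed less between regions, with 257 and 335 CPM in the tumor, 335 and 423 CPM in the edge and 247 and 248 CPM in the neural region, and its part in the *Slc2a1* level was not tested.

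Of the 12 glycolytic enzymes measured, 1 was called higher and 4 lower in tumor than in neural region, and 1 higher and 3 lower in the edge. Of all genes tested, 12.9% were called higher and 14.3% lower in the tumor, and 5.73% higher and 5.78% lower in the edge. *Hk2*, the inducible hexokinase that commits glucose to the cell, had 30.3, 87.7 and 11.3 CPM in the tumor, edge and neural region of section 1 and 31.2, 56.0 and 13.7 CPM in section 2. The edge stood above the tumor and the tumor above the neural region in both sections. The log2 difference was 1.29 ± 0.29 for tumor over neural (edgeR adjusted p = 0.0354) and 2.50 ± 0.31 for edge over neural (adjusted p = 0.0238). Scaled by library size alone, the first of these missed the threshold (adjusted p = 0.0521).

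The enzymes that were lower in the tumor were mostly forms known from brain. *Eno2*, neuron-specific enolase, had 81.9, 264 and 976 CPM in section 1 and 37.2, 271 and 1052 CPM in section 2, with a log2 difference of -4.16 ± 0.44 for tumor over neural (edgeR adjusted p = 0.00652) and -1.93 ± 0.39 for edge over neural (adjusted p = 0.0479). *Aldoc*, the aldolase of brain that marks astrocytes and bands of Purkinje cells, had 131, 253 and 1938 CPM in section 1 and 216, 184 and 1783 CPM in section 2. Its log2 differences were -3.43 ± 0.39 (adjusted p = 0.00712) and -3.09 ± 0.38 (adjusted p = 0.0238). *Pfkm*, the muscle-type phosphofructokinase that brain also uses, had 56.7, 78.2 and 331 CPM in section 1 and 34.4, 87.2 and 344 CPM in section 2, with log2 differences of -2.91 ± 0.31 (adjusted p = 0.00646) and -2.02 ± 0.30 (adjusted p = 0.0272). *Hk1*, the constitutive hexokinase, fell less, with 129, 152 and 239 CPM in section 1 and 124, 130 and 212 CPM in section 2 (log2 -0.83 ± 0.19, adjusted p = 0.0345).

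Neuronal markers were likewise highest in the neural region and lowest in the tumor, while astrocyte markers did so only in part. The sum of 6 neuronal markers was 1562 and 1835 CPM in the neural region, 209 and 305 CPM in the edge and 56.2 and 35.6 CPM in the tumor, and the astrocyte sum 2766 and 5720, 1698 and 3146, and 1472 and 3781 CPM. In section 2 the astrocyte marker *Gja1* had 3061 CPM in the tumor, 763 in the edge and 443 in the neural region. *Gfap*, *Aqp4*, *Slc1a3* and *Aldh1l1* were lowest in the tumor there. The part of these markers in the lower enzyme levels was not tested. The call of *Eno2* in the edge was lost with a stricter marker ratio (adjusted p = 0.0682) and when spots past the tumor ratio stayed tumor whatever their *Arg1* (adjusted p = 0.0701). That of *Hk1* was lost with DESeq2, RLE factors, no section block and *Arg1* at 2000 CPM, with adjusted p from 0.0501 to 0.0705.

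The other 7 enzymes were not called by edgeR with the settings used throughout. *Gpi1*, *Pfkl*, *Aldoa*, *Pgk1*, *Pgam1* and *Pkm* each had a higher level in the edge than in the neural region of both sections, by a log2 difference of 0.25 to 1.21, and *Pfkp* was higher in section 1 and lower in section 2. In the tumor *Pfkp* was below the neural region in both sections (log2 -0.82 ± 0.24, adjusted p = 0.0649), and this passed with *Arg1* at 500 CPM (adjusted p = 0.0421) and with scaling by library size alone (adjusted p = 0.0206). *Pkm*, the pyruvate kinase at the end of the pathway, had 956, 1889 and 991 CPM in section 1 and 1205, 1263 and 912 CPM in section 2. *Pgam1*, the mutase of the lower pathway, had 369, 1025 and 533 CPM in section 1 and 467, 713 and 448 CPM in section 2. For both of these the edge was highest in each section, and its lead over the tumor was larger in section 1. These and the further members described without a call, other than *Hif1a*, *Epas1*, *Vegfa*, *P4ha2* and the isozymes, were picked for description after their values had been seen.

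The balance of isozymes was set beside these levels, as the log2 ratio of 2 genes in a library compared between regions of that section. Probes differ between genes, so only its change between regions has a meaning. *Aldoa*, the aldolase of muscle and most dividing cells, had 628, 1637 and 1186 CPM in section 1 and 1195, 1329 and 1120 CPM in section 2. Its ratio to *Aldoc* was higher than in the neural region by 2.96 and 3.14 in the tumor and by 3.40 and 3.52 in the edge. The ratio of *Hk2* to *Hk1* was higher by 2.27 and 1.93 in the tumor and by 3.54 and 2.70 in the edge. For *Pfkl*, the liver-type phosphofructokinase (71.4, 179 and 82.8 CPM, and 189, 188 and 111 CPM), the ratio to *Pfkm* was higher by 2.32 and 4.07 in the tumor and by 3.18 and 2.73 in the edge. For *Pfkp*, the platelet type (122, 209 and 177 CPM, and 95.4, 159 and 203 CPM), it was higher by 2.00 and 2.22 and by 2.31 and 1.62. All 4 ratios moved the same way in both sections and both regions. A permutation test of the 2 libraries of a region against 2 of another cannot go below a p of 0.33. Keeping the pairing by section leaves fewer arrangements still, so none was run. In these pairs the neural isozyme changed more than its partner, with the exception of *Hk2* over *Hk1*, where the change of *Hk2* was larger.

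Of the 5 measured genes of pyruvate, lactate and pH, 4 had a higher level in the edge than in the neural region of both sections. With the settings used throughout, edgeR called none of the 5. *Slc16a3* encodes MCT4, a lactate exporter and HIF target, and had 33.01, 184 and 13.5 CPM in section 1 and 193, 146 and 12.6 CPM in section 2. Edge and neural region were close between the sections, and the tumor of section 2 held 5.77 times the level of the tumor of section 1. The log2 difference of edge over neural was 3.68 ± 0.84 (edgeR adjusted p = 0.0601). DESeq2 called *Slc16a3*, *Pdk1* and *Car9* higher in tumor and edge and *Car12* higher in the tumor, with adjusted p from 1.54e-05 to 0.0243. Without the section block, edgeR called *Slc16a3* and *Car12* higher in the tumor than in the neural region (adjusted p = 0.0483 and 0.0374). It did so too when spots past the tumor ratio stayed tumor whatever their *Arg1* (adjusted p = 0.0452 and 0.0490). *Slc16a1*, the MCT1 carrier, was flat in section 1 (39.3 to 43.1 CPM) and lowest in the tumor of section 2 (13.8 CPM, against 45.8 in the neural region). *Pdk1*, the kinase that keeps pyruvate out of the mitochondrial cycle, had 34.7, 58.9 and 22.8 CPM in section 1 and 86.1, 72.9 and 30.6 CPM in section 2. *Car9*, a carbonic anhydrase of the cell surface and a textbook HIF target, had 14.02, 52.9 and 6.99 CPM in section 1 and 137, 99.5 and 11.9 CPM in section 2. *Car12*, a related anhydrase, was low throughout, at 3.10 to 27.3 CPM.

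Of the 9 further HIF targets, *Plin2* and *P4ha1* were called by edgeR with the settings used throughout. Both were higher in tumor and in edge than in the neural region, where 12.9% and 5.73% of all genes were called higher. *Plin2*, which coats lipid droplets, had 265, 1190 and 78.4 CPM in the tumor, edge and neural region of section 1 and 125, 595 and 49.4 CPM in section 2. The edge stood far above the tumor in both sections. The log2 difference was 1.54 ± 0.23 for tumor over neural (edgeR adjusted p = 0.0125), 3.75 ± 0.25 for edge over neural (adjusted p = 0.0238) and 2.21 ± 0.23 for edge over tumor, which did not pass (adjusted p = 0.0766). It passed when spots past the tumor ratio stayed tumor whatever their *Arg1* (2.13, adjusted p = 0.0348). Without the section block the call of tumor over neural was lost (adjusted p = 0.0829). *P4ha1*, a subunit of the prolyl hydroxylase that collagen needs to fold, had 154, 264 and 50.04 CPM in section 1 and 133, 167 and 61.0 CPM in section 2. It differed by 1.35 ± 0.29 for tumor over neural (adjusted p = 0.0297) and 1.92 ± 0.29 for edge over neural (adjusted p = 0.0290). The macrophage marker sums were 5274, 7872 and 1501 CPM in section 1 and 1123, 7436 and 1518 CPM in section 2. The sums were highest in the edge of both sections, as *Plin2* was, but in section 2 the sum was lower in the tumor than in the neural region, where *Plin2* was higher in the tumor. Single markers split in section 1. *Cd68* (1751 CPM in the edge against 642 in the tumor) and *Gpnmb* (2025 against 458) were far higher in the edge, and *C1qa* and *C1qb* slightly higher. *Csf1r* (225 against 404 CPM), *Mrc1* (23.7 against 137), *Adgre1* and *Lyz2* were lower. The part of these markers in the level of *Plin2* was not tested.

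*Hk2*, *P4ha1* and *Plin2* were the 3 members called higher in both tumor and edge, and the 250 bases upstream of their RefSeq starts (build GRCm38.p6) are shown for this reason. Capitals mark the core of the hypoxia response element, ACGTG or GCGTG, on either strand, so that CACGT and CACGC are the same words read on the other strand. *Hk2* lies on the minus strand at chr6:82774455-82774704, *P4ha1* on the plus strand at chr10:59323046-59323295 and *Plin2* on the minus strand at chr4:86670060-86670309, and each sequence is written in the direction of its gene.
Hk2: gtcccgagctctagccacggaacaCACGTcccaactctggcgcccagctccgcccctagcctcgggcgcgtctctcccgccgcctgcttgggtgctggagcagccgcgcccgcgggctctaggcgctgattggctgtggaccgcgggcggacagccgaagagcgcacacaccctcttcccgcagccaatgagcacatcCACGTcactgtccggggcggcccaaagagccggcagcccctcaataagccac
P4ha1: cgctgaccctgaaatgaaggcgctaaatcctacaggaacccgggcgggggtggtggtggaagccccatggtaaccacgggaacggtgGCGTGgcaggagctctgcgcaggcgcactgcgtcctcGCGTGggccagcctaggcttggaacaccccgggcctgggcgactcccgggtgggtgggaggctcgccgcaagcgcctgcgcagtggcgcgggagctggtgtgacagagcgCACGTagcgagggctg
Plin2: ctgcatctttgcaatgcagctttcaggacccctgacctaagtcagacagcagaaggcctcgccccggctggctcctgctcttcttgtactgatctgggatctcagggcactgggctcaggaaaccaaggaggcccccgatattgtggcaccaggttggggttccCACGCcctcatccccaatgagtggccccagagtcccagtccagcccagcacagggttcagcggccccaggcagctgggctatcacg
The cores numbered 2 in *Hk2*, 3 in *P4ha1* and 1 in *Plin2*. Such a core is common: 38.6% of all 32851 RefSeq starts in the table held it, and 41.5% of genes held it at 1 start or more. Of the 29 members in the table, 26 did (89.7%), among them 10 of 12 glycolytic enzymes and 8 of 8 HIF targets. The 3 without it were *Car12*, *Eno2* and *Gpi1*. A match is a string of letters and does not show binding.

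*Vegfa*, the growth factor of vessels, had 51.9, 243 and 77.1 CPM in section 1 and 278, 246 and 68.5 CPM in section 2. The edges and the neural regions were nearly equal across sections, while the tumor of section 1 lay under its neural region and that of section 2 above its edge. The log2 difference of edge over neural was 1.72 ± 0.71 (edgeR adjusted p = 0.193), with 1.65 in section 1 and 1.84 in section 2. *P4ha2*, the sister subunit of *P4ha1*, was the 1 member whose difference between edge and tumor went opposite ways by more than 1 on each side (log2 1.02 and -1.47). It had 73.8, 151 and 25.5 CPM in section 1 and 401, 144 and 24.0 CPM in section 2, and its difference of tumor over neural, 2.99 ± 0.77, missed the threshold (adjusted p = 0.0510) and passed it under 5 of 11 alternatives, among them DESeq2 and no section block.

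*Adm*, the vasodilator adrenomedullin, behaved as *Vegfa* did, with 13.0, 102 and 18.7 CPM in section 1 and 93.9, 61.1 and 15.04 CPM in section 2. *Bnip3*, a mitochondrial protein of mitophagy, had 17.7, 95.2 and 36.8 CPM and 39.9, 68.1 and 35.7 CPM, highest in both edges. *Ndrg1* (70.3, 113 and 92.8 CPM, and 266, 135 and 95.6 CPM) and *Ankrd37* (7.11, 20.1 and 8.52 CPM, and 39.5, 30.7 and 15.8 CPM) were highest in the edge of section 1 and in the tumor of section 2. *Ddit4*, an inhibitor of mTORC1, varied little between regions of section 1 (111 to 128 CPM) and was highest, at 246 CPM, in the section 2 tumor.

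Against the neural region, the HIF targets had higher median differences than the enzymes. The groups are roles, and HIF also raises genes of glycolysis, as given above. They thus do not separate genes under HIF from others. Between edge and neural region all 9 targets were higher in both sections, with a median log2 difference of 1.72 (1.65 in section 1 and 1.45 in section 2). For the 12 enzymes the median was 0.44 (0.57 and 0.29), with 7 higher and 4 lower in both sections. The 4 lower were *Hk1* (-0.68), *Pfkm* (-2.02), *Aldoc* (-3.09) and *Eno2* (-1.93). Over all 19228 genes tested the median was -0.01, with 7226 higher in both sections. Between tumor and neural region the median of the targets was 0.90, but -0.25 in section 1 and 1.47 in section 2. That of the enzymes was -0.29 (-0.53 and 0.08), and that of all genes -0.13. Between edge and tumor 9 of 12 enzymes and 3 of 9 targets were higher in the edge of both sections, as were 6097 of all 19228 genes, so the share of the targets was near that of all genes. The targets had a median of 1.44 in section 1 and -0.36 in section 2. Counts and medians of the lists are descriptions, and no test was made of a list.

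**Figure D3:**
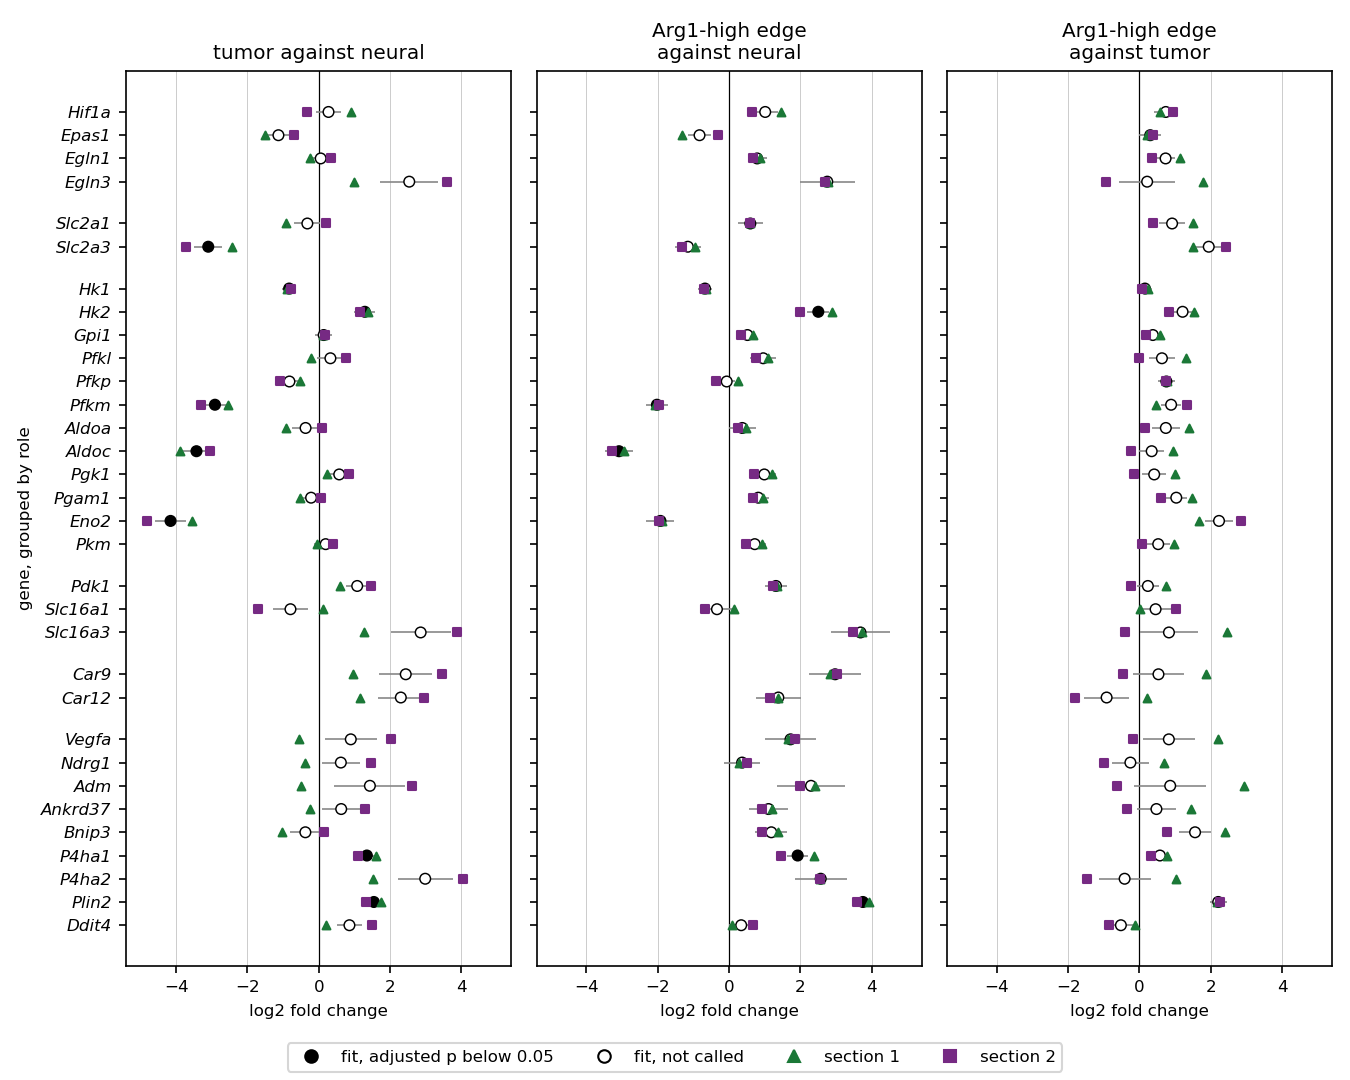
Log2 fold change of each gene between regions, from the fit over both sections (circle with its SE, filled where the adjusted p was below 0.05) and within section 1 (triangle) and section 2 (square). In the middle panel all 9 HIF targets lie right of 0, and 2 of the 32 genes have opposite signs in the sections. In the left panel 13 of the 32 do, among them 5 of the 9 targets.

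Between the sections, the members differed most in the tumor. For 12 of the 32 members (37.5%) the level in the tumor of section 2 was more than 1 on the log2 scale above that of section 1, against 9.89% of all genes. No member differed upward by that much in the edge (5.69% of all genes) or in the neural region (1.31%). The median difference of the HIF targets was 1.91 in the tumors, -0.06 in the edges and -0.09 in the neural regions, and that of the enzymes was 0.25, -0.30 and 0.08. The widest was *Car9*, at 9.44 times the level of section 1. Others ran the other way, at 0.333 times for *Slc16a1*, 0.457 for *Eno2*, 0.461 for *Slc2a3* and 0.472 for *Plin2*. Downward differences were not counted over all genes. There is 1 tumor section on each side, so these differences have no test. Epithelial, fibroblast and macrophage markers differed between the same tumors, as given above, and their part was not tested.

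Within the tumor, too, most members ran in opposite directions in the 2 sections. The interior was the tumor spots at least 5 steps from the nearest spot under tissue not called tumor (463 in section 1 and 234 in section 2). It was compared with the rim, the tumor spots 1 to 2 steps from such a spot (156 and 327). Arg1-high spots counted as not tumor here, also those past the tumor ratio. The outer border of the tissue or of the array did not count, so interior spots can lie near it. In section 1 *Vegfa* had 38.1 CPM in the interior and 84.9 at the rim, and in section 2 369 and 164 CPM. *Adm* had 6.83 and 32.5 CPM in section 1 and 122 and 56.7 CPM in section 2. *Slc16a3* had 18.3 and 72.4 CPM in section 1 and 249 and 116 CPM in section 2. Each was lower in the interior of section 1 and higher in that of section 2, with counting intervals of the log2 ratio (95%, exact) that did not reach 0. For *Vegfa* they were -1.310 to -1.002 in section 1 and 1.09 to 1.25 in section 2.

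Of all 32 members, 24 had opposite signs in the sections, 7 were lower in the interior of both (*Hif1a*, *Epas1*, *Slc2a3*, *Pfkm*, *Aldoc*, *Eno2* and *Plin2*) and *Ddit4* was higher in both. The same count was not made over all genes, so whether opposite signs are particular to the members was not tested. The median log2 ratio of interior to rim was -1.01 for the HIF targets and -0.56 for the enzymes in section 1, against 0.81 and 0.29 in section 2. With a rim of 1 step the medians were -1.16 and -0.74, and 0.91 and 0.28. *Plin2* was lower in both interiors, 151 against 553 CPM in section 1 and 103 against 130 CPM in section 2. The endothelial marker sum was lower in both interiors as well (204 against 408 CPM, and 290 against 411 CPM), and the macrophage sum was 5097 against 5669 CPM and 765 against 1528 CPM. The neuronal sum was 49.95 against 95.7 CPM and 13.5 against 63.3 CPM, and the oligodendrocyte sum 134 against 310 CPM and 130 against 261 CPM. Their part was not tested.

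**Figure D4:**
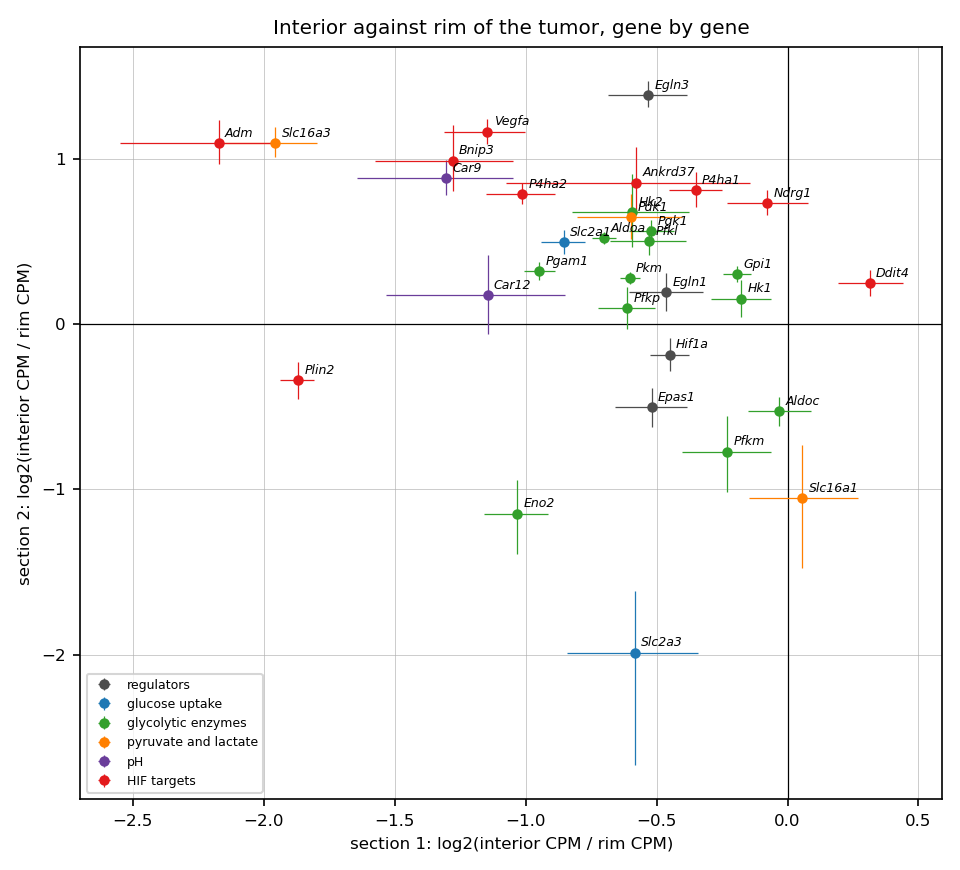
Log2 ratio of CPM in the interior to CPM at the rim of the tumor, in section 1 (x axis) and section 2 (y axis), for each of the 32 genes colored by role. Bars are 95% counting intervals. Most points lie in the upper left, lower in the interior of section 1 and higher in that of section 2.

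The place of the highest spots differed in the same way. The summed CPM of the 9 HIF targets had a median of 631 over tumor spots of section 1, with a 10th percentile of 454 and a 90th percentile of 1155. In section 2 these were 1156, 705 and 2862 CPM, so the spread between spots was wider. Of the 76 tumor spots with the highest sums in section 1, 92.1% lay at the rim, where 20.6% of all its tumor spots lay. Of the 76 highest in section 2, 18.4% lay at the rim, where 43.3% of all its tumor spots lay, and 56.6% lay in the interior, which held 234 of the 755. For the summed enzymes the shares at the rim were 80.3% and 18.4%. In the edge the median sum of the HIF targets was 2202 and 1373 CPM, and in the neural region it was 493 and 456 CPM. A sum weighs each gene by its level. At the rim of section 1 *Plin2* had the highest level of the 9 targets (553 CPM, against 151 in the interior). It also led in the edges, at 1150 and 581 CPM. In the interior of section 2 *P4ha2* was highest (472 CPM, against 273 at the rim), and *Plin2* had 103 CPM there and 130 at the rim. The places of the highest spots thus rest in part on different genes in the sections.

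Across the border of the tumor the levels of several members differed over a few array steps, as a description with no test. Here Arg1-high spots past the tumor ratio counted as inside the tumor, unlike in the comparison of interior and rim. The rows just inside thus hold part of the edge, and their values differ from those of the rim. In section 1 *Vegfa* was 38.0 CPM at 7 or more steps inside the tumor, 138 at 2 steps inside, 219 in the last row inside, 294 in the first row outside, 109 at 3 to 4 steps outside and 93.0 at 20 or more. In section 2 it was 324 CPM deep inside and 122 in the last row inside, with a second, smaller peak of 189 in the first row outside and 80.2 far out. *Plin2* peaked at the border of both sections, at 954 CPM in the last row inside in section 1 and 448 CPM at 2 steps outside in section 2, and was 20.4 and 26.5 CPM far out. *Hk2* had 95.5 CPM in the first row outside and 5.39 far out in section 1, and 44.0 and 9.02 CPM in section 2. *Aldoc* had 106 and 167 CPM deep in the tumor and 2512 and 2307 CPM far out. *Arg1* itself, which defined the edge, was highest at 1171 CPM in the last row inside in section 1 and 1446 CPM in the first row outside in section 2.

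**Figure D5:**
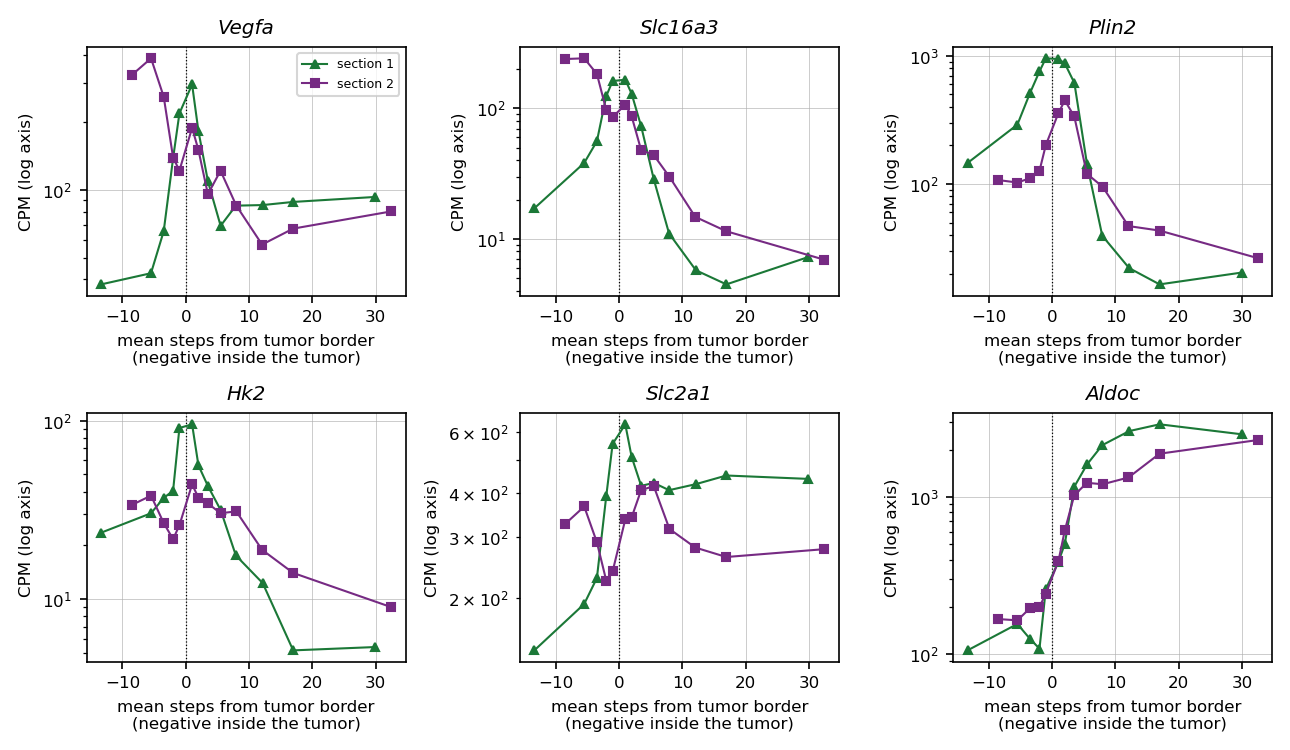
CPM (log axis) of 6 genes by mean number of array steps from the tumor border, with negative steps inside the tumor, in section 1 (triangles) and section 2 (squares). Arg1-high spots past the tumor ratio count as inside. *Plin2* peaks at the border in both sections, *Vegfa* and *Slc16a3* peak there in section 1 and inside the tumor in section 2, and *Aldoc* is far higher outside than inside in both.

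The edge was also compared with the other spots of the same border zone, those within 5 steps of tumor and of neural tissue with less *Arg1* (417 and 671 spots). Of the 32 members, 24 were higher in the edge in both sections, 2 were lower in both (*Pfkm* and *Aldoc*) and 6 had opposite signs. The same count was not made over all genes, so it does not show a trait particular to the members. The median log2 ratio was 0.66 in section 1 and 0.40 in section 2. *Plin2* was higher by 1.10 and 2.04 (1150 against 536 CPM, and 581 against 141 CPM). *Vegfa* was higher by 1.26 and 0.83, *Bnip3* by 1.21 and 1.16, *Hk2* by 1.03 and 1.17 and *Slc2a1* by 0.65 in both. *P4ha2* (0.82 and -0.62), *Ddit4*, *Ndrg1*, *Epas1*, *Car12* and *Slc16a1* were those of opposite sign. The macrophage sum was 7872 against 5914 CPM and 7436 against 2370 CPM in the same spots, and the neutrophil sum 167 against 93.7 CPM and 146 against 65.0 CPM. The astrocyte sum was lower in the edge, at 1698 against 3086 CPM and 3146 against 4636 CPM. The epithelial sum was 58.8 against 70.4 CPM and 1293 against 1864 CPM, and the oligodendrocyte sum 866 against 979 CPM and 1058 against 633 CPM. Their part in the levels of the members was not tested.

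Across single tumor spots, the members had a higher median correlation in section 2 than in section 1. Spearman's rho of each member with the summed CPM of the other HIF targets (the 9 above with *Car9*, *Egln3*, *Slc2a1* and *Pdk1*) had a median of 0.57 over 755 spots of section 2 and 0.18 over 759 spots of section 1. In section 2 it was 0.82 for *Vegfa*, 0.81 for *Egln3* and *Aldoa*, 0.79 for *Slc16a3*, 0.74 for *Pgk1* and 0.71 for *Pkm* and *Car9*. In section 1 the highest were 0.48 for *Pgam1*, 0.45 for *Pkm*, 0.42 for *Slc16a3* and 0.41 for *Aldoa*, all of them low. Of the 32 members, 18 exceeded 0.5 in section 2. *Eno2* (0.02), *Plin2* (0.02), *Car12* (-0.05), *Aldoc* (-0.05), *Slc16a1* (-0.07), *Slc2a3* (-0.14), *Pfkm* (-0.15), *Hif1a* (-0.19) and *Epas1* (-0.22) were the lowest there. Over the edge spots the medians were 0.26 and 0.16, and over neural spots 0.03 and 0.01. In the edge rho ranged from -0.17 to 0.56 in section 1 and from -0.15 to 0.42 in section 2. *Plin2*, the target with the highest level there, had -0.17 and -0.14. These spots share a section, library and depth, so rho is a description. Mean UMIs per tumor spot also differed between sections 1 and 2, at 2.45 and 10.6 for *Vegfa* and 0.61 and 3.59 for *Adm*. For *Plin2* they were 12.5 and 4.78. In neural spots *Vegfa* had 0.80 and 0.82. The part of these counts in rho was not tested, and rho was not taken over all genes.

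A wider list of 46 other genes of these pathways, 42 of them measured, was set beside the members. In the tumor 3 were higher and 8 lower than in the neural region, 11 of 42 where 27.1% of all genes were called. In the edge 7 were higher and 4 lower, 11 of 42 where 11.5% of all genes were called. edgeR called none between edge and tumor. Those described here, *Igfbp3*, *Hk3*, *Loxl2* and *Hif3a*, were among the called genes with the widest differences. *Igfbp3*, which binds insulin-like growth factors, was higher in tumor (log2 3.53 ± 0.28, edgeR adjusted p = 0.00420) and edge (3.75 ± 0.28, adjusted p = 0.0238). *Hk3*, the hexokinase of myeloid cells, was higher in the edge (3.54 ± 0.70, adjusted p = 0.0465), as was *Loxl2*, which cross-links collagen (3.39 ± 0.52, adjusted p = 0.0304). *Hif3a*, a HIF subunit that can hold the others in check, was lower in the tumor (-2.91 ± 0.44, adjusted p = 0.0135). *Gapdh*, one of the most abundant glycolytic transcripts in most tissue, was listed at 2.08 to 4.35 CPM in all 6 libraries, a remark added after its values were seen, and levels were not ranked between genes.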

How the data were processed

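UMI counts per gene and spot were deposited by the authors for 2 sections, made with Space Ranger 2.1.1 on the mm10 build per the submitters' processing notes. The counts were neither normalized nor filtered by gene. Probe number and efficiency differ between genes, so each gene was compared between regions, and levels were not ranked between genes. The 36 listed genes, the marker lists and the tests were chosen with earlier results of these data known.

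Spots under tissue with at least 500 UMIs and 10 genes were kept, 3315 of 3406 in section 1 and 3999 of 4017 in section 2, with 63986887 and 71878333 UMIs in all spots under tissue. The log2 ratio of a tumor sum (14 epithelial and collagen genes) to a neural sum (20 genes) set a spot to tumor at 1 or more, in connected groups of at least 50 spots, and to neural at -1 or less. Edge spots needed at least 3 *Arg1* UMIs and were taken first, so 64 and 52 of them lay past the tumor ratio. No region was given to 61 and 159 spots. The sections share 3096 barcodes, since a barcode marks an array position. No doublet caller was run.

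Counts were summed per section and region and fitted with edgeR 4.0.16 (limma 3.58.1, R 4.3.3) by the quasi-likelihood test, with TMM factors, filterByExpr by region and the section as a block. Benjamini-Hochberg adjustment ran over 19228 genes tested. DESeq2 1.42.0 was an alternative. All 32 measured members passed the filter. Spots are not replicates. With section as a block, p-values set a difference between regions against its variation between the 2 sections. That variation was estimated in part over all genes. The labels do not say that the sections came from separate mice, and the study calls them biological replicates. Levels are TMM-scaled CPM for members and plain CPM for marker sums and for tables within the tumor or across its border. Differences within a section are log2 after adding 0.5 CPM. Intervals cover counting error only. *Aldoa* has 2 rows, of which the one with 140549 UMIs was used and the one with 596 was not. Values in every region are given for members called, members of isozyme pairs, *Hif1a*, *Epas1*, *Vegfa* and members that moved by more than 1 in opposite directions, with other members added as said in the text. From the wider list, up to 5 called genes with the largest differences were to be named, and 1 of them is not reported here. Tables and figures were made with Python 3.11.15, numpy 2.4.6, scipy 1.17.1, pandas 2.3.3 and matplotlib 3.10.9. The fits were run on simulated data with less spread between libraries than was estimated here and no difference between sections. That run cannot show how often calls are false or missed in these data.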

Additional observations from a re-analysis of the deposited data

How the results depend on the processing

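The 96 differences of members (32 genes in 3 comparisons) were recomputed under 11 alternatives. Of 1056 values, 1012 kept direction and side of the threshold, 29 passed it in addition, 8 no longer passed and 7 changed sign; 10 of the 14 calls were kept throughout. For the others the lost calls are given in the report, and the cause was not tested. Signs changed for tumor against neural under scaling by library size alone for *Hif1a* (-0.040), *Gpi1* (-0.18), *Pkm* (-0.12) and *Egln1* (-0.27), and with *Arg1* at 500 CPM for *Egln1* (-0.0014). For edge against tumor they changed for *Egln3* with *Arg1* at 500 CPM (-0.053) and for *Ankrd37* when tumor spots were kept whatever their *Arg1* (-0.0096). None of these 7 was called.

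Of all genes, DESeq2 called 6495 for tumor against neural. It called 14 members there, 13 for edge against neural (4109 genes) and 3 for edge against tumor (1041 genes). With *Arg1* at 2000 CPM, 1406 genes were called for edge against neural and 37 for edge against tumor. With tumor spots kept whatever their *Arg1*, 1053 genes were called for edge against neural and 362 for edge against tumor, 1 of them a member (*Plin2*). The regions of a section come from 1 mouse and are paired. Without the replicate block 194 genes were called for edge against tumor in place of 0. The median of the HIF targets for edge against neural was 1.42 with *Arg1* at 500 CPM and 1.47 when scaled by library size alone, where that of the enzymes was 0.21.

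Leaving out a section leaves values with no test. The medians of the HIF targets then ranged from -0.25 to 1.47 for tumor against neural, from 1.45 to 1.65 for edge against neural and from -0.36 to 1.44 for edge against tumor, and those of the enzymes from -0.53 to 0.08, from 0.29 to 0.57 and from 0.17 to 0.99. The isozyme ratios of *Ldha* to *Ldhb* and *Eno1* to *Eno2* were not run. Depth limits precision most for *Car12*, with 34 and 31 UMIs in the edges.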
